A study of Mus musculus with 16 samples.

Results

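The 10 genes described here direct the making of motile cilia or belong to the same transcription factor families, and they were followed in primary astrocytes of mice lacking NLRX1, a mitochondrial member of the NOD-like receptor family. They were chosen by name as Foxj1, Rfx1, Rfx2, Rfx3, Rfx4, Rfx5, Rfx7, Mcidas, Gmnc and Ccno, and all 10 had a row among the 16707 genes of the deposited log2 CPM table. CPM is the count of reads of a gene scaled to the size of its library. Astrocytes came from C57BL/6J WT pups and from Nlrx1-/- pups (KO) at postnatal day 6 per the labels, in 4 litters per genotype, were bound by ACSA2 beads and were grown in serum-free medium. One well of each litter received LPS at 500 ng/mL with IFNγ at 10 ng/mL for 24 h and another received water, which gave 16 libraries in 4 groups of 4. The study's text differs in places from the labels on the age of the pups and on the vehicle. Litters are the replicates, and the deletion is present in every cell of the body rather than in astrocytes alone.

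Motile cilia are built under a short regulatory chain. GMNC (GEMC1) and MCIDAS (multicilin), both relatives of geminin, act with E2F proteins to start the multiciliated cell program, CCNO helps to amplify centrioles, and FOXJ1 and the RFX factors switch on the genes of the axoneme, the motor-bearing core of the cilium. RFX factors bind the X-box, and RFX5 is used in another way, as a subunit of the complex that opens the promoters of MHC class II genes together with the coactivator CIITA. In the brain FOXJ1 and multicilin are best known from ependymal cells, which line the ventricles, while RFX4 is abundant in neural progenitors and astrocytes.

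The targeted gene checked the labels. Nlrx1 stood at 4.08 to 4.44 log2 CPM in the 8 WT libraries and at 1.09 to 2.96 in the 8 KO libraries, without overlap. Salmon assigned 27259420 to 43752903 read pairs to a library. The astrocyte markers Aldh1l1 and Sox9 were present in every library, at 674 to 1177 CPM and 238 to 491 CPM, while Gfap ranged more widely, from 831 to 2592 CPM in WT vehicle, 716 to 1536 in WT LPS + IFNγ, 165 to 1398 in KO vehicle and 361 to 1007 CPM in KO LPS + IFNγ wells. Of the markers of other cells, Aif1 and Cx3cr1 of microglia had 0 to 5 reads in a library, Cldn5 and Cdh5 of endothelium 0 to 4 and 0 to 38.1, and Mog of mature oligodendrocytes 0 to 15.3. Other cells left more reads, with 719 to 4285 for Sox10 of the oligodendrocyte lineage, 70 to 215 for Snap25 and 43 to 143 for Rbfox3 of neurons, 23 to 236 for Ttr and 0 to 24 for Kl of choroid plexus, and 108 to 833 for Col1a1 and 10 to 136 for Dcn of fibroblasts. Longer marker lists stood higher than these single genes. Summed per library, 10 oligodendrocyte lineage markers reached 2135 to 3734 CPM and 7 neuronal markers 842 to 1185 CPM. The sum of 9 astrocyte markers was 4968 to 10213 CPM. The ependymal marker Ccdc153 had 0 to 163 reads and Tmem212 had 0 to 33. In bulk samples such as these, fewer cells of a type and less RNA per cell cannot be told apart.

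On GRCm39 Foxj1 occupies bases 116221530 to 116226225 of chromosome 11 (minus strand), in 3 exons of its canonical GENCODE transcript. Gmnc lies on chromosome 16 from 26732303 to 26810402. Ccno and Mcidas are neighbours on the plus strand of chromosome 13, at 113124315 to 113127312 and 113130328 to 113136928, with 3016 bases between them. The RFX genes lie each on a chromosome of its own, Rfx3 on chromosome 19 from 27739121 to 27988566 and Rfx4 on chromosome 10 from 84591896 to 84742404. The libraries kept no strand, so reads from genes on the opposite strand, such as Gm40728 within Rfx4 and Dcaf15 at Rfx1, cannot be told apart from those of the member.

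The 300 bases before the start of each canonical transcript were searched on both strands for the full X-box motif and for the hexamer GTTGCC. That hexamer matches a form of the left arm of the X-box, and other forms of the arm were not searched for by themselves. The full X-box was in none of the 10, against 0.363% of 21751 protein-coding promoters of the same length. The hexamer, which overlaps one form of the full motif, was in 4 of the 10, against 11% of promoters. Those 4 sequences are shown here because they carry that hexamer, and other members may carry other forms of the arm. The forkhead motif GTAAACA (3.43% of promoters), the interferon-stimulated response element (4.07%) and the E2F motif TTTCGCGC (0.303%) were in none of the 10. A match is a run of letters and no evidence of binding. The sequences are given 5′ to 3′ on the strand of the gene, from the GRCm39 genome, with GTTGCC in capitals. They come from chr11:116226226-116226525 on the minus strand for Foxj1, with the hexamer at -113 to -108 from the start, from chr17:57138112-57138411 on the minus strand for Rfx2 (-13 to -8), from chr13:113130028-113130327 on the plus strand for Mcidas (-121 to -116) and from chr13:113124015-113124314 on the plus strand for Ccno (-198 to -193).
Foxj1: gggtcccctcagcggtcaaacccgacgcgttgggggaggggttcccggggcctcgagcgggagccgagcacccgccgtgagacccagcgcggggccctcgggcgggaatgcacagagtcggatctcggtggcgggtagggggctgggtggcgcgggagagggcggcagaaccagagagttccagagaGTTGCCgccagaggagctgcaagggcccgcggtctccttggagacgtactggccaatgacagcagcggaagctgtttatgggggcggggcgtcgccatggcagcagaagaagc
Rfx2: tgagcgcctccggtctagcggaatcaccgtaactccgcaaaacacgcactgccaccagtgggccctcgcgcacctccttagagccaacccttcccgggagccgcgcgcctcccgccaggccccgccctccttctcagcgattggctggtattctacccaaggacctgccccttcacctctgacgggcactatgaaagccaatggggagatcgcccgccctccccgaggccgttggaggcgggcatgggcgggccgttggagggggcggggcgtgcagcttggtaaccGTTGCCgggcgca
Mcidas: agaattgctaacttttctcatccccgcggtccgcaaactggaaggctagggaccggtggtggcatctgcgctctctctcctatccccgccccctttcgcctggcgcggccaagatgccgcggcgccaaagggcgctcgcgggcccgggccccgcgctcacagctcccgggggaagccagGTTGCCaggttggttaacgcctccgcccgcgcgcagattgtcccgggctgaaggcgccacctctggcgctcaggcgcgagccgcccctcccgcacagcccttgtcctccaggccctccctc
Ccno: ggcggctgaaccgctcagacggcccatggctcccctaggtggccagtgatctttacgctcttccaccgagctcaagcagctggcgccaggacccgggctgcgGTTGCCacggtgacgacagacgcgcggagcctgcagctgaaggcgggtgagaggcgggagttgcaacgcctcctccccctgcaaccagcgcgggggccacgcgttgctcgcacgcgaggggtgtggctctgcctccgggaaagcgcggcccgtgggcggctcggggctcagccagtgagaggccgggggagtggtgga

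To set the members side by side, levels were compared per length, as TPM, which scales reads to transcript length and library size. In WT vehicle cells Foxj1 had the highest mean of the 10, at 155 ± 18.9 TPM (SD, n = 4), with a range of 133 to 179. Rfx4 followed at 104 ± 8.34 TPM, without overlap with Foxj1. Rfx3 at 32.5 ± 2.00 and Rfx7 at 30.1 ± 2.61 TPM overlapped, Rfx5 stood at 20.4 ± 1.39, and Rfx2 at 13 ± 1.06 and Rfx1 at 12.7 ± 0.648 TPM overlapped. The geminin relatives and Ccno were the lowest, with Ccno at 4.63 ± 1.71, Gmnc at 1.36 ± 0.493 and Mcidas at 1.21 ± 0.808 TPM. The summed reads of Rfx1 and Rfx2 stood at a median of -0.44 and -0.16 log2 against the deposited values, so their TPM may be too low. Sums leave out transcripts that could not be paired with a symbol, and whether this explains the gap for these genes was not tested.

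The order changed between groups. After LPS + IFNγ, Rfx4 at 112 ± 12.8 TPM was above Foxj1 at 93.6 ± 11.1 TPM in WT cells, with overlap. In KO cells Rfx4 was at 121 ± 24.6 and Foxj1 at 109 ± 26.5 TPM with vehicle, again with overlap, and at 121 ± 17.5 and 63.1 ± 14.1 TPM with LPS + IFNγ, without overlap. Rfx3 went from the third place in WT vehicle cells to the sixth in KO cells with LPS + IFNγ, at 12.3 ± 0.921 TPM. Mcidas and Gmnc had the 2 lowest means in every group and overlapped each other in each.

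The first question was how the members responded to LPS + IFNγ in WT cells. Foxj1 and Rfx3 fell in all 4 litters, Rfx2 and Gmnc fell by smaller or less certain amounts, and Rfx4 and Rfx5 rose. The test was limma on the deposited log2 CPM of all genes with litters as blocks within genotype, and a gene is called where its adjusted p (Benjamini-Hochberg over 16707 genes) was below 0.05. In WT cells 4 of the 10 members were called lower, against 21.9% of all genes, and 2 were called higher, against 24.9%. As 46.7% of all genes of the table were called, the number of members called is near that background. Of all called genes in WT cells 53.2% were higher, and 39.6% after quantile normalization, which moved the median of all genes from -0.02 to -0.09 log2.

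Foxj1 levels in WT vehicle wells were 7.37, 7.62, 7.81 and 7.60 log2 CPM in litters 1 to 4. With LPS + IFNγ they were 6.87, 7.09, 7.33 and 7.06 log2 CPM. Every stimulated well lay below every vehicle well, and the litter responses of -0.50, -0.53, -0.47 and -0.55 log2 were close to each other. The fitted Foxj1 response was -0.51 ± 0.05 log2 (SE; limma, adjusted p = 9.65e-06).

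Rfx3, an activator of ciliary genes, fell further than Foxj1. Its WT vehicle levels were 6.90, 7.03, 6.98 and 7.14 log2 CPM, and 6.14, 6.10, 6.21 and 6.27 with LPS + IFNγ. The groups were far apart for the spread between litters, and the response was -0.83 ± 0.06 log2 (limma, adjusted p = 2.29e-07). Without each litter in turn, Foxj1 and Rfx3 were called in every fit of both genotypes.

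Rfx2, another activator of ciliary genes, was at 4.38, 4.65, 4.62 and 4.34 log2 CPM in WT vehicle wells and at 4.17, 4.24, 4.06 and 4.22 with LPS + IFNγ. These groups did not overlap either, but the litter responses spread from -0.56 to -0.12 log2. The fitted response was -0.33 ± 0.11 log2 (limma, adjusted p = 0.0251), and the call was lost without WT litter 2 (adjusted p = 0.0977) or WT litter 3 (adjusted p = 0.136). In all, 3 members lay without overlap below vehicle in WT cells, against 17.6% of genes, and 1 (Rfx4) above, against 20.2%.

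Rfx4 rose in WT cells. Its levels were 7.39, 7.50, 7.59 and 7.68 log2 CPM with vehicle and 7.77, 7.87, 7.72 and 8.07 with LPS + IFNγ, a response of 0.32 ± 0.08 log2 (limma, adjusted p = 0.00759). The call was lost after quantile normalization (0.15 log2, adjusted p = 0.208) and without the litter block (adjusted p = 0.0756).

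Rfx5, the MHC class II factor, rose less than the genes it is known to serve. Its levels were 5.10, 5.23, 5.28 and 5.36 log2 CPM with vehicle and 5.35, 5.59, 5.36 and 5.80 with LPS + IFNγ, so that the groups overlapped at their edges while each litter rose. The response was 0.28 ± 0.08 log2 (limma, adjusted p = 0.0148), and it was not called without WT litter 2 (adjusted p = 0.0701), without WT litter 4 (0.0801), after quantile normalization (0.101) or without the litter block (0.107). Its partners moved very unequally. Ciita went from 0.691 to 1.5 CPM in WT vehicle wells to 302 to 355 CPM, and Nlrc5, the related coactivator of MHC class I genes, from 3.83 to 5.07 CPM to 326 to 423 CPM. Of the other subunits of the RFX complex, Rfxank differed by -0.03 log2 (adjusted p = 0.648) and Rfxap fell by 0.23 log2 (limma, adjusted p = 0.0356). All 8 MHC class II genes in the table were called higher in both genotypes, and their summed level went from 5.59 to 8.45 CPM in WT vehicle wells to 2213 to 2890 CPM. Of the 9 other RFX genes and partners in the table, 3 were called higher (Ciita, Nlrc5 and Nfyb) and 2 lower (Creb1 and Rfxap) in WT cells. Among all genes 24.9% were called higher and 21.9% lower, so these counts are near that background.

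The remaining members were low or steady. Gmnc fell from 0.25, 1.13, 1.62 and 1.32 log2 CPM to -0.74, -0.89, 0.72 and 0.58 in WT cells, a response of -1.16 ± 0.39 log2 (limma, adjusted p = 0.0292). That rested on 40 to 158 reads with vehicle and 15 to 49 with LPS + IFNγ, and the call was lost without any 1 of the 4 WT litters (adjusted p of 0.0511 to 0.153). Mcidas was lower with LPS + IFNγ in each WT litter, at -1.62 to 0.41 log2 CPM against -0.56 to 1.55, but with a standard error of 0.60 its response of -1.05 log2 was not called (limma, adjusted p = 0.172). Responses of Ccno (-0.04 ± 0.31), Rfx1 (0.04 ± 0.07) and Rfx7 (-0.05 ± 0.05 log2) were not called (limma, adjusted p of 0.922, 0.655 and 0.473).

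**Figure D1:**
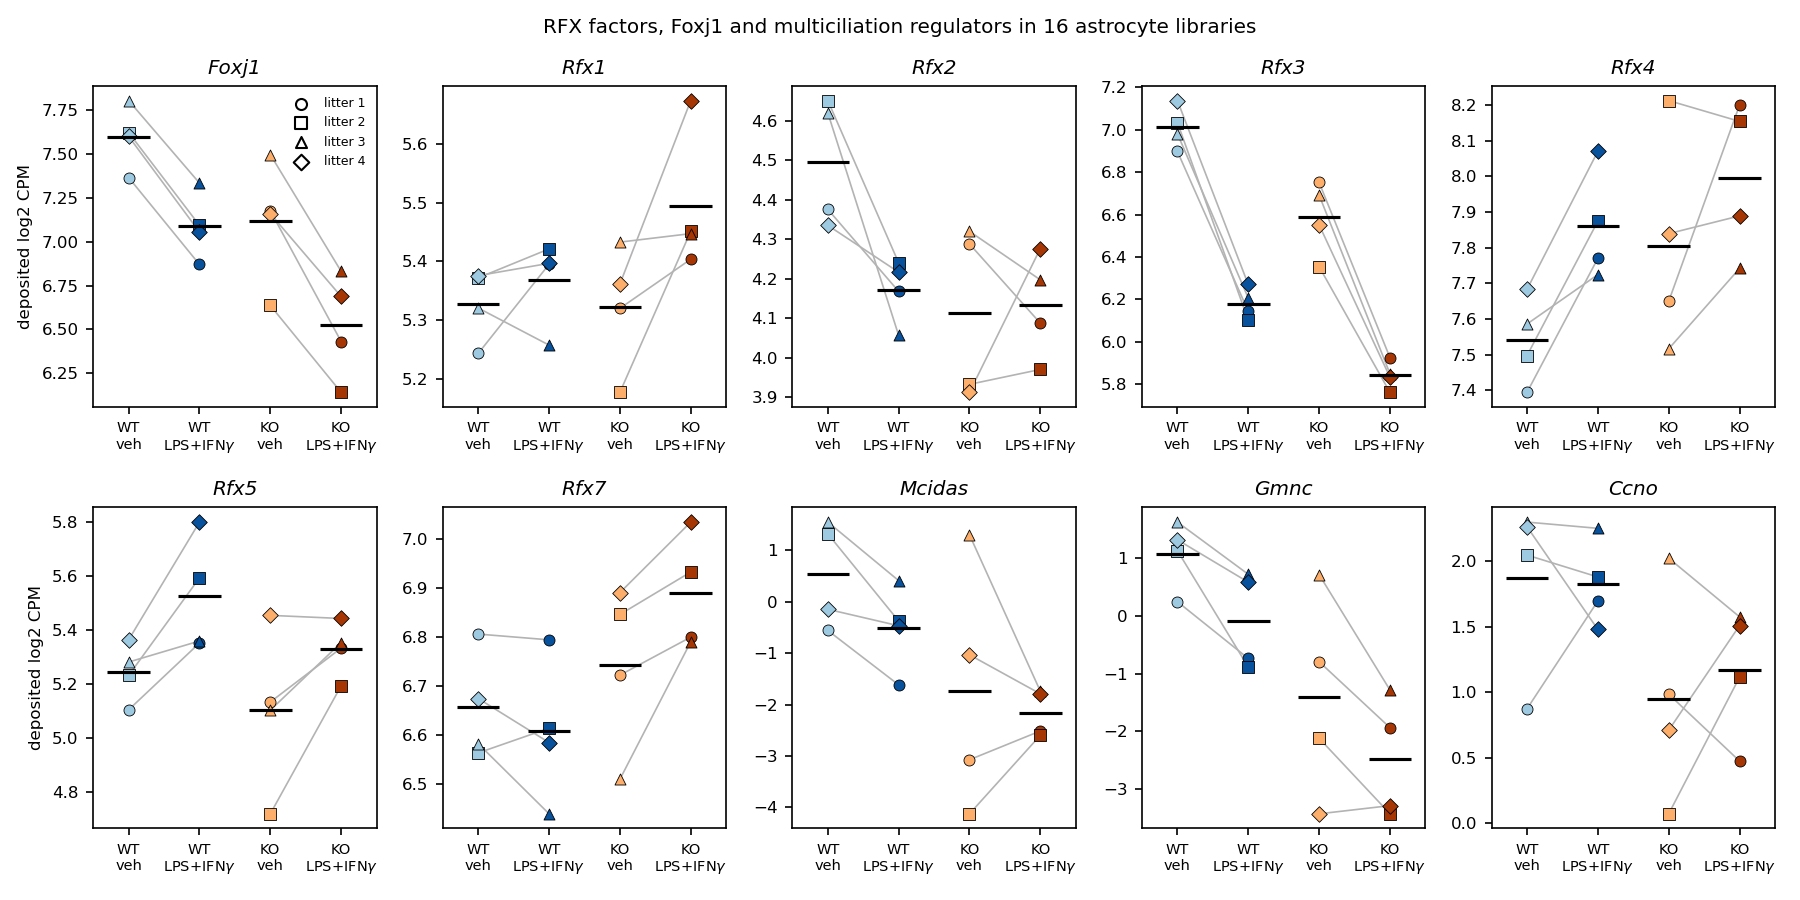
Deposited log2 CPM of each member in the 16 libraries, with 1 point per well, a symbol per litter, grey lines joining the vehicle and LPS + IFNγ wells of a litter and a black bar at each group mean. The lines of Foxj1 and Rfx3 run down in all 8 litters, and those of Mcidas and Gmnc spread over several log2 units in KO cells. The vertical scale differs between panels.

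In KO cells the direction for Foxj1, Rfx3 and Gmnc was the same, and 3 of the 10 members were called lower (25.5% of all genes) and 3 higher (26.6%), against 52.1% of genes called in either direction. Of all called genes in KO cells 51.1% were higher, and 39.0% after quantile normalization. Foxj1 was at 7.18, 6.64, 7.50 and 7.16 log2 CPM with vehicle and at 6.43, 6.14, 6.83 and 6.69 with LPS + IFNγ. The groups overlapped because the litters differed by more than in WT cells, yet each litter fell, and the response was -0.59 ± 0.05 log2 (limma, adjusted p = 2.18e-06). Rfx3 went from 6.75, 6.35, 6.69 and 6.55 to 5.93, 5.76, 5.85 and 5.83 log2 CPM, the only member without overlap between the KO groups, and against 14.4% of genes that lay lower without overlap. Its response was -0.74 ± 0.06 log2 (limma, adjusted p = 5.44e-07).

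Gmnc in KO cells was at -0.79, -2.12, 0.72 and -3.43 log2 CPM with vehicle and at -1.94, -3.43, -1.28 and -3.29 with LPS + IFNγ. With 1 to 64 reads in a vehicle well, litter 4 did not fall, and the response of -1.08 ± 0.39 log2 (limma, adjusted p = 0.0367) was not called without KO litters 1, 2 or 3 (adjusted p of 0.0899, 0.0912 and 0.174), nor without WT litters 1, 3 or 4 (0.0504 to 0.0568), which also feed the shared estimate of the spread. Mcidas in KO cells went in both directions, from -3.07, -4.13, 1.3 and -1.03 to -2.51, -2.60, -1.74 and -1.79 log2 CPM. It had 0 reads in the vehicle well of litter 2, which allows up to 3 reads or 0.0858 CPM, and 82 reads in that of litter 3, and its response of -0.43 ± 0.60 log2 was not called (limma, adjusted p = 0.578).

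Rfx5 (0.23 ± 0.08 log2), Rfx1 (0.17 ± 0.07) and Rfx7 (0.15 ± 0.05), the last known as a target and helper of p53, were called higher in KO cells (limma, adjusted p of 0.0355, 0.0486 and 0.0327). None of these 3 calls held in edgeR on the summed counts (adjusted p of 0.0618, 0.0753 and 0.0659), and after quantile normalization Rfx7 turned to -0.03 log2. Rfx1 was not called without any 1 of the 4 WT litters or without KO litters 1, 2 or 4 (adjusted p of 0.0548 to 0.194), Rfx5 not without KO litters 1, 2 or 3 (0.0755 to 0.173) and Rfx7 not without KO litters 3 or 4 (0.156 and 0.0699). Rfx4 went from 7.65, 8.21, 7.52 and 7.84 to 8.20, 8.15, 7.74 and 7.89 log2 CPM, a response of 0.19 ± 0.08 log2 that was not called (limma, adjusted p = 0.0714) but was without KO litter 2 (0.27 log2, adjusted p = 0.0195). Responses of Rfx2 (0.02 ± 0.11) and Ccno (0.22 ± 0.31 log2) were not called (limma, adjusted p of 0.891 and 0.577).

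**Figure D2:**
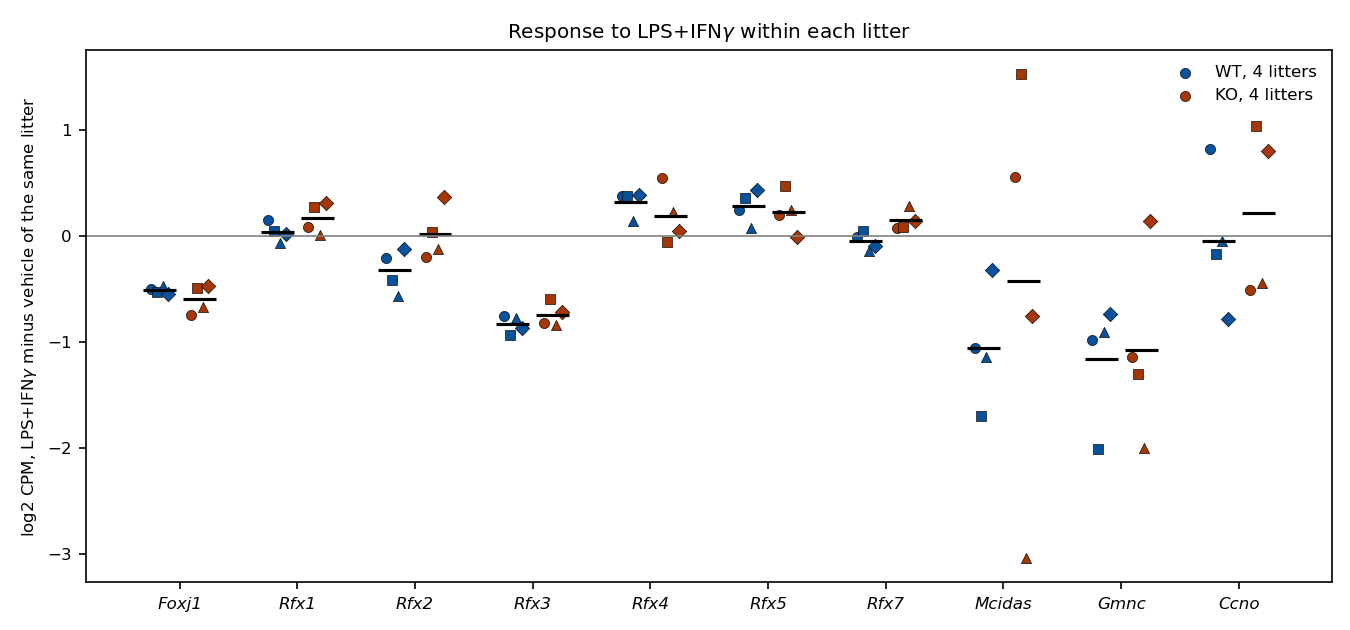
Response of each member to LPS + IFNγ, as log2 CPM of the stimulated well minus that of the vehicle well of the same litter, with blue points for the 4 WT litters, brown points for the 4 KO litters and black bars at the means. Foxj1 responses lie between -0.75 and -0.47 and Rfx3 responses between -0.93 and -0.59 in all 8 litters, while Mcidas responses in KO cells range from -3.04 to 1.53.

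Whether the responses differed between genotypes was tested as the interaction. No member and no gene of the 16707 passed limma's test at an adjusted p below 0.05 (background 0%), nor did any member in edgeR, DESeq2 or limma-voom on summed counts, where DESeq2 gave Gmnc and Mcidas no adjusted p. At an unadjusted p below 0.05 there were 2 members and 2786 genes, and DESeq2 called 111 genes higher and 185 lower. For Foxj1 the KO response minus the WT response was -0.08 log2, with a 95% interval of -0.25 to 0.08, and for Rfx3 it was 0.09, with an interval of -0.09 to 0.26. The 2 members with an unadjusted p below 0.05 were Rfx2 (-0.33 in WT and 0.02 in KO cells, difference 0.34 log2, interval 0.02 to 0.67, limma adjusted p = 0.278), and Rfx7 (difference 0.20 log2, interval 0.03 to 0.36, limma adjusted p = 0.225). The intervals for Mcidas (-1.23 to 2.48) and Gmnc (-1.13 to 1.29 log2) were wide and held both 0 and a 2-fold difference in either direction.

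The genotypes were then compared within each treatment. These comparisons use the same libraries as the responses, and each litter has 1 genotype, so litter and genotype cannot be told apart beyond the 4 litters of each. The limma fit took the spread from all wells as if both wells of a litter were independent. Its errors and p-values therefore leave out what the wells of a litter share. In vehicle wells limma called 0 members, against 0.00599% of genes, which is 1 gene, Nlrx1. Before adjustment 6 of 10 members had a p below 0.05, all 6 lower in KO, against 21.1% of genes. DESeq2 on summed counts called 1 member (Rfx3), and edgeR and limma-voom called 0. In the vehicle wells of Foxj1, KO litter 3 at 7.50 log2 CPM lay among the WT litters, the other 3 KO litters at 6.64 to 7.18 lay below them, and the difference was -0.48 ± 0.17 log2 (limma, adjusted p = 0.139). Rfx3 and Rfx2 lay without overlap below WT (3.43% of genes did, and 6.02% lay above), with differences of -0.42 ± 0.08 and -0.38 ± 0.11 log2 (limma, adjusted p of 0.0928 and 0.111). Gmnc differed by -2.49 ± 0.74, Mcidas by -2.27 ± 0.88 and Ccno by -0.92 ± 0.39 log2 (limma, adjusted p of 0.110, 0.169 and 0.198), on few reads.

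Which members were called depended on the litters included, while the differences of the 6 members with a p below 0.05 before adjustment kept their sign. Without KO litter 3 all of Foxj1 (-0.61 log2, adjusted p = 0.0265), Rfx2 (-0.45, 0.0325), Rfx3 (-0.46, 0.00947), Gmnc (-3.19, 0.0102), Mcidas (-3.29, 0.0147) and Ccno (-1.28, 0.0401) were called lower by limma in vehicle wells. The count of genes called went from 1 to 930 lower and 688 higher in that fit. Without WT litter 1, Rfx3 was called (-0.46 log2, adjusted p = 0.0346). The KO vehicle library of litter 3 also had the highest summed level of astrocyte markers of the 4, 7913 CPM against 4968 to 6576 CPM, and of ependymal markers, 30.7 CPM against 14.6 to 19.2 CPM.

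In LPS + IFNγ wells Foxj1 and Rfx3 were lower in KO cells. These were 2 of 10 members, against 4.41% of genes called lower, and 0 were called higher, against 4.4%, or 8.8% in either direction. The KO levels of Foxj1, 6.14 to 6.83 log2 CPM, lay below the WT levels of 6.87 to 7.33, a difference of -0.57 ± 0.17 log2 (limma, adjusted p = 0.0480). The KO levels of Rfx3, 5.76 to 5.93, lay below the WT levels of 6.10 to 6.27, a difference of -0.34 ± 0.08 log2 (limma, adjusted p = 0.0349). Both calls are near the threshold. That of Foxj1 was lost in edgeR (adjusted p = 0.0568), in limma-voom on sums (0.0602) and without WT litters 2, 3 or 4 or KO litters 1, 2 or 4 (0.0811 to 0.147). That of Rfx3 was lost without WT litters 2, 3 or 4 or KO litters 2 or 4 (0.0547 to 0.132). In those fits at most 1 gene was called higher and 2 lower of the whole table. Both calls were lost when only the 8 stimulated libraries were fitted (0.0700 and 0.0699).

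Gmnc and Mcidas also lay without overlap below WT after stimulation, which makes 4 members, against 6.23% of genes. Gmnc had 1 to 14 reads in KO wells and 15 to 49 in WT wells, with a difference of -2.40 ± 0.74 log2 that fell just short of the call (limma, adjusted p = 0.0519). Mcidas had 3 to 9 reads in KO wells and 10 to 47 in WT wells (-1.65 ± 0.88 log2, limma adjusted p = 0.219). Rfx7 was at 6.80, 6.93, 6.79 and 7.03 log2 CPM in KO and at 6.79, 6.61, 6.44 and 6.58 in WT wells, a difference of 0.28 ± 0.09 log2 (limma, adjusted p = 0.0647). Without KO litter 3 limma called Gmnc (-2.80 log2, adjusted p = 0.00714) and Rfx7 (0.31, adjusted p = 0.0212), and without WT litter 1 it called Gmnc (-2.62, adjusted p = 0.0498) and Rfx7 (0.34, adjusted p = 0.0337). Differences of Rfx1 (0.13), Rfx2 (-0.04), Rfx4 (0.14), Rfx5 (-0.20) and Ccno (-0.66 log2) were not called (limma, adjusted p of 0.268 to 0.860).

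**Figure D3:**
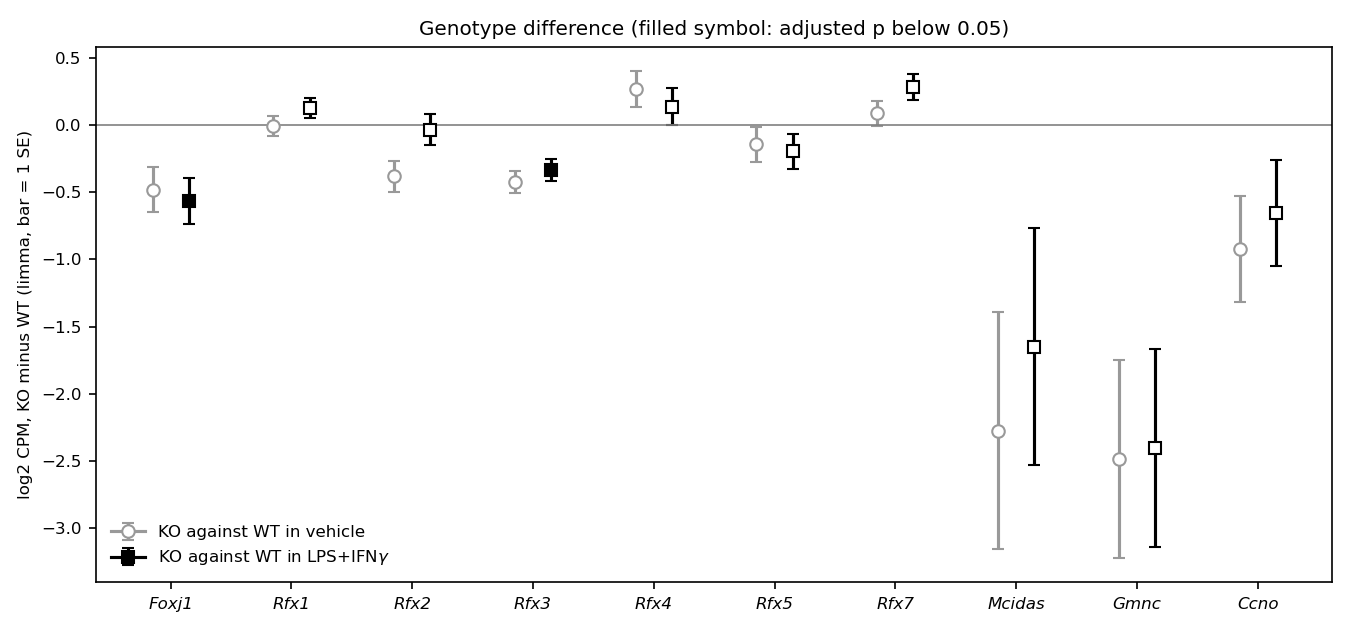
Fitted difference between genotypes for each member, as log2 CPM of KO minus WT, with grey circles for vehicle wells, black squares for LPS + IFNγ wells, bars of 1 SE from limma and filled symbols where the adjusted p was below 0.05. The 2 filled symbols are Foxj1 at -0.57 and Rfx3 at -0.34 with LPS + IFNγ, and the wide bars of Mcidas and Gmnc go with their few reads.

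The genes downstream of these factors were read from lists. Of 88 genes of the motile axoneme in the table (91 listed), 43 were called lower (21.9% of all genes) and 4 higher (24.9%) in the WT response. In the KO response 54 were called lower (25.5% of all genes) and 6 higher (26.6%). Their median responses were -0.72 and -0.85 log2, beside -0.02 for all genes in both. The called genes with the largest change were Cfap100 (-1.58 ± 0.18), Cfap44 (-1.53 ± 0.13) and Tekt1 (-1.49 ± 0.30 log2) in WT cells, and Cfap206 (-2.43 ± 0.31), Tekt1 (-2.31 ± 0.30) and Cfap100 (-2.07 ± 0.18 log2) in KO cells. CFAP proteins are parts of the axoneme and tektin 1 lines its doublet microtubules.

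The same list was read between genotypes. With vehicle 0 of 88 were called by limma or edgeR and 11 by DESeq2, all lower. Of the 16066 genes fitted by DESeq2, 280 were called lower in that comparison. Before adjustment 54 of the 88 had a p below 0.05 in limma, against 21.1% of all genes. A negative difference was seen for 81 of the 88, and the median was -0.91 log2. With LPS + IFNγ 25 were called lower (4.41% of all genes) and 0 higher (4.4%), with a median of -1.01 log2. The largest were Cfap206 (-2.99 ± 0.56), Ccdc146 (-2.51 ± 0.65) and Zmynd10 (-2.24 ± 0.46 log2). The count called lower was 0 without WT litters 2, 3 or 4 or without KO litters 2 or 4. In those fits at most 1 gene was called higher and 2 lower of the whole table. Without KO litter 1 it was 9 of the axoneme genes, beside 404 of all genes. Without KO litter 3 it was 56, beside 1980 of all genes. In vehicle wells it was 42 without KO litter 3, beside 930 of all genes.

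Genes of intraflagellar transport and of the BBSome, which serve primary and motile cilia alike, had medians nearer to 0. Of 63 such genes 23 were called lower and 6 higher in WT cells (median -0.08 log2), 27 lower and 8 higher in KO cells (median -0.17 log2), and with LPS + IFNγ 6 were lower and 0 higher in KO than in WT (median -0.18 log2). For all genes the shares were 21.9% lower and 24.9% higher in WT, 25.5% and 26.6% in KO, and 4.41% and 4.4% between genotypes. The 6 became 0 without WT litters 2, 3 or 4 or KO litters 2 or 4, and 16 without KO litter 3. The fits with 0 called at most 1 gene higher and 2 lower of the whole table. The fit without KO litter 3 called 1980 genes lower. Tulp3, an adaptor for traffic into the primary cilium, rose by 1.10 ± 0.10 log2 in WT and 1.39 ± 0.10 log2 in KO cells. The other genes of the multiciliation chain (22 in the table) were called lower for 4 and higher for 2 in WT cells, no larger a share than among all genes, and lower for 13 and higher for 2 in KO cells. Among those 13 were genes of dividing cells such as Cdk1 (-0.46 ± 0.09 log2) and Gmnn (-0.46 ± 0.15 log2), while Deup1, which builds the deuterosome for many centrioles, fell by 1.69 log2 (SE 0.45). With LPS + IFNγ the KO cells had less Ccna1 (-1.81 ± 0.49) and Ulk4 (-0.79 ± 0.23) and more E2f4 (0.41 ± 0.09 log2), an E2F partner of multicilin (limma, adjusted p of 0.0395, 0.0477 and 0.0349). In that comparison 4 genes of the chain were called lower and 1 higher, and both counts were 0 without WT litters 2, 3 or 4 or KO litters 2 or 4, fits in which at most 1 gene was called higher and 2 lower of the whole table. The count lower was 2 without KO litter 1, and 1 in edgeR and 0 in limma-voom. Of 11 genes of the Notch pathway, which holds cells back from multiciliation, 7 were called lower and 0 higher in WT cells and 9 lower and 2 higher in KO cells, among them Dll1 (-0.78 ± 0.12 and -1.25 ± 0.12 log2) and Hes5 (-0.74 ± 0.23 and -2.06 ± 0.23 log2).

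**Figure D4:**
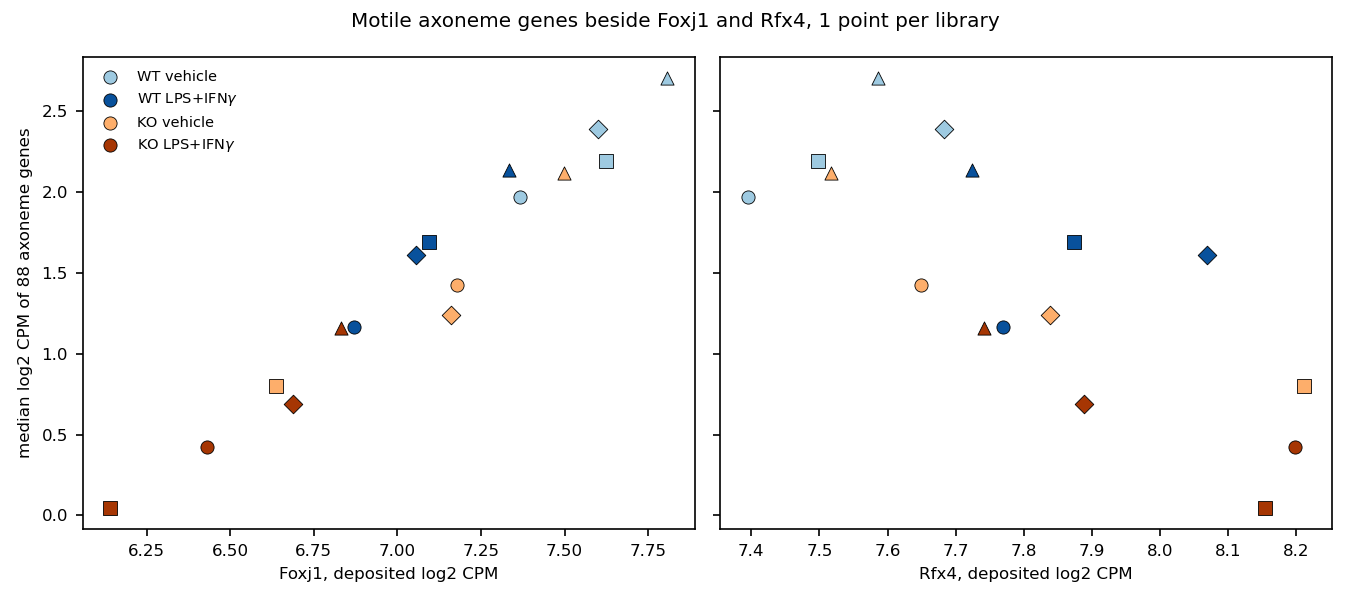
Median log2 CPM of 88 axoneme genes against the deposited log2 CPM of Foxj1 (left) and Rfx4 (right), with 1 point per library, coloured by group and with a symbol per litter as in the plot of member levels. The medians range from 0.05 to 2.70 and follow Foxj1 across and within the groups, while they fall as Rfx4 rises.

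Library by library, the axoneme median moved with Foxj1. Over the 16 libraries, which share litters, treatments and scaling, Pearson's r between Foxj1 and that median was 0.977 (Spearman's rho 0.962), 0.961 over the 14 libraries left without the 2 farthest in Foxj1, and 0.957 over deviations from the 4 group means. For Rfx3 the r was 0.793, and 0.530 over the deviations. For Gmnc it was 0.896 and 0.735, for Mcidas 0.831 and 0.769, for Ccno 0.699 and 0.796, and for Rfx2 0.695 and 0.535. For Rfx5 it was 0.100 and 0.324, and for Rfx1 -0.339 and 0.298. For Rfx4 (-0.772 and -0.614) and Rfx7 (-0.775 and -0.745) it was negative. These values describe the libraries and were not tested.

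Among 13501 genes with a mean of at least 0 log2 CPM, those whose deviations from the group means were most like those of Foxj1 were Tcta (r = 0.954), Cfap70 (0.951) and Fam184a (0.941). For Rfx3 they were Ccdc190 (0.942), Osbpl9 (0.906) and Zbtb20 (0.897), and for Rfx2 Ccdc96 (0.866), Ube4a (0.851) and Dnaaf3 (0.842), the last a factor for the assembly of ciliary dynein. For Rfx4 the nearest were Manba (0.938), C030006K11Rik (0.898) and Zfp407 (0.896). For Rfx5 they were 1700088E04Rik (0.927), Cntrl (0.926) and Sts (0.913), for Rfx7 Irf2bp2 (0.935), Pitx3 (0.934) and Adm (0.928), for Rfx1 Nfkbib (0.918), Irx3 (0.902) and Cant1 (0.880), and for Ccno Sync (0.938), Borcs6 (0.918) and Prune2 (0.916). Each r is over 16 libraries and is the highest of many.

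Markers of other cells moved with some of these results. Of all genes 21.9% were called lower and 24.9% higher in WT cells, and 25.5% and 26.6% in KO cells. In KO against WT with LPS + IFNγ these shares were 4.41% and 4.4%. Of 8 ependymal markers in the table (10 listed), 4 of which are also in the axoneme list, 3 were called lower and 1 higher in WT cells, 6 lower and 2 higher in KO cells, and 2 (Dynlrb2 and Cfap126, both in the axoneme list) lower in KO than in WT with LPS + IFNγ. The median of the 8 was -0.68 log2 in the WT response and -0.94 in the KO response, with 6 of the 8 negative in each. For KO against WT it was -0.87 log2 with vehicle and -1.09 with LPS + IFNγ. Rarres2 rose by 1.68 log2 in WT and 2.01 in KO cells, and Hdc by 1.92 in KO cells. The summed level of the 8, which includes these rising genes, was 26.9 to 42.1 CPM in WT vehicle, 28.1 to 40.1 in WT LPS + IFNγ, 14.6 to 30.7 in KO vehicle and 20.2 to 27.3 in KO LPS + IFNγ wells. Ccdc153 had 24 to 163, 9 to 59, 22 to 53 and 0 to 23 reads in these groups, and Tmem212 had 3 to 33, 0 to 12, 0 to 6 and 0 to 2. Of astrocyte markers 4 of 9 were called lower in KO than in WT with LPS + IFNγ (Aqp4, Slc1a2, Gja1 and S100b), with summed levels of 5803 to 8701 CPM in WT and 5058 to 6728 in KO wells. Of 10 oligodendrocyte lineage markers 1 was called lower in that comparison. However, 9 of the 10 had a negative difference and 7 an unadjusted p below 0.05 in limma (29.6% of all genes), and the median was -1.32 log2. In the responses 6 of the 10 were called lower in WT cells and 7 in KO cells, and 0 were called higher. Of 7 neuronal markers 0 were called between genotypes with LPS + IFNγ (2 at an unadjusted p below 0.05 in limma). The part of these cells in the results for Foxj1, Rfx3 and the axoneme genes was not tested.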

How the data were processed

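RNA of 16 astrocyte libraries was measured by poly-A RNA-seq without strand information. The authors quantified transcripts with Salmon 1.7.0 on the GRCm39 transcriptome, and the authors deposited an expected count and a TPM per transcript. The authors also deposited CPM and log2 CPM per gene, made from length-scaled counts of tximport, filtered with filterByExpr and scaled by TMM for limma-voom (limma 3.58.1), so that these CPM do not sum to 1 fixed total. Groups and replicate numbers came from the labels, and the study's methods name the biological replicates as litters.

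The deposited log2 CPM of all 16707 genes were fitted with limma 3.58.1 in R 4.3.3 (lmFit, eBayes with a trend). Responses and their difference were fitted with litter within genotype, and KO was set against WT in a model of the 4 groups without litters. A litter gave both wells, and deviations from group means of its libraries had a Pearson r of 0.07 to 0.35 across genes, against a median of -0.05 between litters. The same numbers in both genotypes pair nothing (r of -0.09 to 0.18). Expected counts of the 106440 of 129698 transcripts paired with a symbol, holding 96.7% to 97.3% of reads, were summed per gene and rounded for edgeR 4.0.16 and DESeq2 1.42.0. TPM were summed likewise. Intervals came from limma's moderated degrees of freedom. Precision follows from the reads of a gene and the spread between litters. Counts of 0 allow 3 reads, which covers counting error only.

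The members and the gene lists were chosen with earlier results of these data known. By rule, genes of a list were named from the 3 called genes of a comparison with the largest change and a mean of at least 0 log2 CPM. Not all genes under that rule are named. Cdk1, Gmnn, Creb1, Rfxank and Rfxap lie outside the rule, and they, Deup1 and the markers were named after their values were seen. Only the limma fits to log2 CPM were tested on simulated counts. Those counts held no litter effects, so they cannot show how the fits handle wells that share a litter. Tables were handled with Python 3.11.15, pandas 2.3.3 and matplotlib 3.10.9. Upstream sequences came from the GRCm39 genome and GENCODE M39, on the build the authors used. Alternatives covered the test, scaling, filter, pseudocount of 1, threshold of 0.01, block and each litter left out. Protein sequences were not used here.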

Additional observations from a re-analysis of the deposited data

Results flagged for a closer look

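In 60 groups of 4 values (10 members in 4 groups and 2 sets of responses), 2 had a value that stood apart by Dixon's criterion at the 95% level, a rate that chance alone would reach in about 1 of 20 groups. Rfx1 in the WT LPS + IFNγ well of litter 3 was at 5.26 log2 CPM, where the other 3 litters lay between 5.40 and 5.42. The Rfx4 response of the same litter was 0.14 log2, where the other 3 WT litters lay between 0.38 and 0.39. The Rfx4 level of that stimulated well, 7.72 log2 CPM, was close to the 7.77 of litter 1. The cause was not tested.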

How the results depend on the processing

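Of 950 member values under alternatives, 809 kept their direction and their side of the threshold, 85 lost the call, 23 gained one and 33 changed sign. The falls of Foxj1 and Rfx3 in both genotypes were called under every alternative run. Members called higher in the WT response (2) numbered 0 after quantile normalization or with no replicate block, 1 at an adjusted p below 0.01 and 1 to 2 with a litter left out. Those called lower (4) numbered 2 at 0.01 and 2 to 4 with a litter left out. Members called higher in the KO response (3) numbered 0 in edgeR, DESeq2, limma-voom on sums, edgeR with DESeq2-type size factors, edgeR with no count filter, after quantile normalization, at 0.01, with no replicate block and in the 8 libraries of the genotype alone, and 1 to 2 with a litter left out. Members lower in KO with vehicle (0) numbered 1 in DESeq2 and 0 to 6 with a litter left out. With LPS + IFNγ, members lower in KO (2) numbered 1 in edgeR, in limma-voom, with DESeq2-type size factors, with no count filter and after quantile normalization, 0 at 0.01 and in the 8 libraries of the treatment, and 0 to 3 with a litter left out. Members higher there (0) numbered 1 with duplicateCorrelation and 0 to 1 with a litter left out.

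Litter numbers of the 2 genotypes share only a number. With the replicate block across genotypes 3 members were called lower with vehicle (Foxj1, Rfx3 and Gmnc), and with LPS + IFNγ 1 was called higher (Rfx7) and 3 lower.

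Values that changed sign were, after quantile normalization, the responses of Rfx1 in WT (-0.062 log2) and of Rfx2 (-0.049), Rfx4 (-0.019) and Rfx7 (-0.029) in KO. The Rfx2 response in KO was -0.056 in edgeR, -0.057 in DESeq2, -0.043 in limma-voom, -0.058 in edgeR with DESeq2-type factors and -0.052 with no filter. Rfx1 in KO against WT with vehicle was 0.090, 0.086, 0.088, 0.087 and 0.092 in the same order. The difference of the Gmnc responses was -0.48, -0.52, -0.57, -0.47 and -0.48 in that order, and that of Mcidas was -0.52 in limma-voom. With a litter left out, the following ranged across 0: the responses of Ccno in WT (-0.33 to 0.20) and of Rfx2 (-0.095 to 0.093), Mcidas (-1.08 to 0.44) and Ccno (-0.053 to 0.46) in KO, KO against WT of Rfx1 with vehicle (-0.042 to 0.043) and of Rfx2 with LPS + IFNγ (-0.085 to 0.017), and the differences of the responses of Rfx5 (-0.13 to 0.027), Mcidas (-0.027 to 1.5), Gmnc (-0.32 to 0.39) and Ccno (-0.0092 to 0.55). The cause was not tested.

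Over all genes, those called with vehicle (0 higher, 1 lower) became 455 and 280 in DESeq2, 331 and 163 without WT litter 1, 688 and 930 without KO litter 3, and 358 and 233 with the replicate block. Those with LPS + IFNγ (735 and 736) became 426 and 382 in edgeR, 1229 and 1209 in DESeq2, 199 and 185 in limma-voom, 293 and 259 with no filter, 0 and 1 at 0.01 and in the 8 libraries alone, 1370 and 1445 with the replicate block, and ranged from 0 to 1888 higher and 1 to 1980 lower with a litter left out. Differences of responses (0) became 378 and 444 without KO litter 3. The WT response lost genes called lower at 0.01 (2395 against 3656). Few reads widen the errors of Mcidas and Gmnc in KO cells. Genes of at least 0 mean log2 CPM leave out Mcidas and Gmnc.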
